A study of Mus musculus with 24 samples.

Results

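Igfbp6 and Ptgis were each measured by 1 probe of the Illumina Mouse Sentrix-6 BeadChip, and these 2 of the 46120 probes on the array, scl016012.5_14-S for Igfbp6 and scl019223.1_1-S for Ptgis, were chosen by name and followed over 8 tissues and 24 arrays. Total RNA of 7 week old male C57BL/6 mice was hybridized in triplicate for peritoneal mesothelium, for a pool of pleural and pericardial mesothelium, and for 6 organs, namely bladder, lung, heart, liver, skeletal muscle and adipose tissue (subcutaneous according to the methods). The labels name no transgene or treatment, and the study set the mesothelium against the 6 organs to find markers of the mesothelial lineage. Mesothelium was collected from many mice, its purity was not given, and nothing stated that the 3 arrays of a tissue held separate RNA samples, so each p-value here reflects the spread of these arrays alone, which may be technical.

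Mesothelium is the layer of flattened cells that lines the peritoneal, pleural and pericardial cavities and covers the organs within them. Igfbp6 encodes insulin-like growth factor binding protein 6, a secreted protein that binds insulin-like growth factor II with preference over insulin-like growth factor I and holds it away from its receptor. Ptgis encodes prostacyclin synthase, an enzyme of the cytochrome P450 superfamily in the membrane of the endoplasmic reticulum. It turns the prostaglandin endoperoxide made by the cyclooxygenases into prostacyclin, which leaves the cell, widens blood vessels and restrains platelets. The protein of Igfbp6 is therefore itself secreted, whereas for Ptgis it is the product of the enzyme that is released.

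In the RefSeq annotation of GRCm38.p6, Igfbp6 is at chr15:102144186-102149512 and spans 5327 bases, and Ptgis is at chr2:167203194-167252150 and spans 48957 bases. The place of each array probe within its gene is not given here. The study carried both genes forward from the arrays to quantitative RT-PCR and to hybridization in tissue sections, and the gene-specific parts of its primers are shown because they are the sequences by which it followed the 2 transcripts outside the array. All are written 5′ to 3′ in lower case, with nothing marked.
Igfbp6 hybridization forward: cagggcaaaaactctgacca
Igfbp6 hybridization reverse: tcggaagacctcagtctgga
Igfbp6 qRT-PCR forward: ccgcagacacttggattcag
Igfbp6 qRT-PCR reverse: agaagcctctgaggtcacagtt
Ptgis hybridization forward: agtgtcaaaaaccgcctgtg
Ptgis hybridization reverse: cttcagccgtttcccatctt
Ptgis qRT-PCR forward: ccgattcttgaacccagatg
Ptgis qRT-PCR reverse: tttgatgctgttgatggcata
The 8 primers are 20 to 22 bases long, and the GC content is 50% to 55% in 7 of them and 38.1% in the reverse qRT-PCR primer of Ptgis. No readout of these primers is used here, and the values that follow come from the arrays alone.

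Levels are given as the log2 of the background-corrected, quantile-normalized signal, so that a step of 1 is a doubling, and detection on an array means a detection p under 0.01. The arrays detected 8862 to 13441 probes each, and arrays of the same tissue correlated at 0.942 to 0.993. The 5 mesothelial markers Msln, Upk3b, Lrrn4, Wt1 and Nkain4 were detected on all arrays of both mesothelium sources and each had its highest tissue means there. These markers were chosen by the study on the same arrays. No probe of a liver, heart, muscle, lung, bladder or adipocyte marker carries a gene name here, so the labels of the 6 organs were not checked against such genes.

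Igfbp6 was highest in peritoneal mesothelium, where its log2 signal was 13.93, 14.13 and 14.05 on the 3 arrays (14.04 ± 0.10, SD, n = 3). The deposited signals behind these values ran from 11415 to 13424. In pleural and pericardial mesothelium the log2 signal was 11.66, 11.55 and 11.97 (11.73 ± 0.22, SD, n = 3), from deposited signals of 2628 to 3705. All peritoneal arrays therefore lay above all pleural and pericardial arrays, and these in turn lay above every array of the 6 organs.

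Among the organs the order of the Igfbp6 means was bladder, lung, adipose, heart, skeletal muscle and liver. The bladder arrays gave 10.73, 10.71 and 10.70 (10.71 ± 0.01, SD, n = 3), and the lung arrays gave 11.13, 9.99 and 10.47 (10.53 ± 0.57, SD, n = 3). Adipose arrays were at 10.19, 9.20 and 9.68 (9.69 ± 0.49, SD, n = 3). Lung and adipose had the widest spread of the 8 tissues, and in both it was replicate 1 that was highest. The heart arrays were at 9.13, 9.07 and 9.39 (9.20 ± 0.17, SD, n = 3) and the skeletal muscle arrays at 9.07, 9.14 and 9.14 (9.12 ± 0.04, SD, n = 3). The arrays of each neighbouring pair from bladder down to skeletal muscle overlapped. The steps were 0.18 from bladder to lung, 0.84 from lung to adipose, 0.49 from adipose to heart and 0.08 from heart to skeletal muscle. Each had an SE of 0.25, pooled over the 8 tissues. With SDs of 0.57 and 0.49 in lung and adipose, this SE understates the error of the step between them. Their order is therefore not settled. In liver the Igfbp6 probe was detected on 0 of 3 arrays, at 5.31, 6.00 and 5.23, and its level there is only an upper bound.

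Ptgis was also highest in peritoneal mesothelium, with a log2 signal of 13.26, 13.51 and 13.74 (13.51 ± 0.24, SD, n = 3) from deposited signals of 7575 to 9556. In pleural and pericardial mesothelium it was at 11.88, 11.97 and 12.31 (12.05 ± 0.23, SD, n = 3), from deposited signals of 3100 to 4625. The arrays of the 2 sources did not overlap. Bladder came next with 11.63, 11.85 and 11.65 (11.71 ± 0.12, SD, n = 3), and its highest array was just below the lowest array of pleural and pericardial mesothelium.

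The lower part of the Ptgis order was lung, heart, skeletal muscle, adipose and liver. The lung arrays gave 10.82, 10.70 and 10.60 (10.71 ± 0.11, SD, n = 3) and the heart arrays 9.91, 10.15 and 9.77 (9.94 ± 0.20, SD, n = 3). Skeletal muscle, at 8.01, 8.03 and 8.34 (8.12 ± 0.18, SD, n = 3), and adipose, at 8.53, 8.28 and 7.45 (8.09 ± 0.57, SD, n = 3), were the only neighbours whose arrays overlapped. In liver the Ptgis probe was detected on 0 of 3 arrays, at 5.76, 5.69 and 6.06. Both genes thus had the same 4 tissues at the top of their order and liver at the bottom, and they differed in the place of adipose, which was above heart for Igfbp6 and below skeletal muscle for Ptgis.

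**Figure D1:**
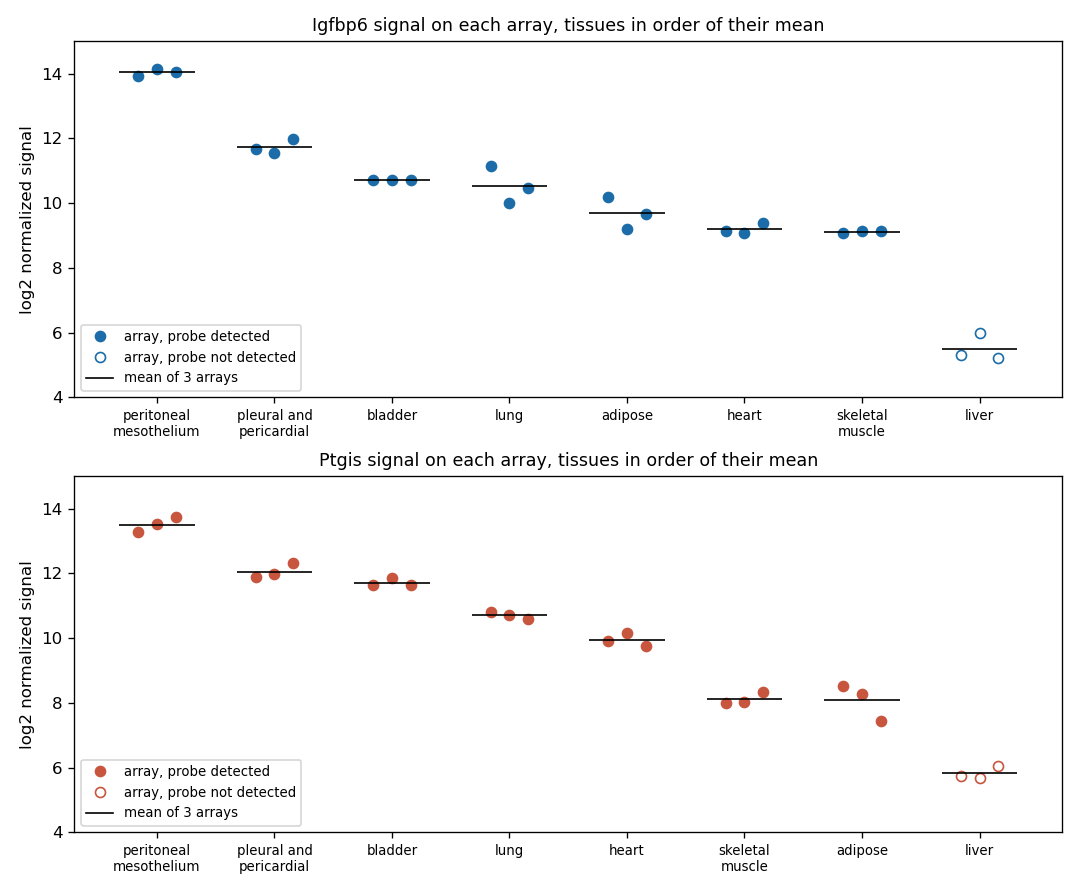
The log2 normalized signal of Igfbp6 (top) and Ptgis (bottom) on each of 24 arrays, with the tissues in the order of their means. Filled points are arrays on which the probe was detected, open points arrays on which it was not, and lines are means of 3 arrays. Both genes are highest on the 3 peritoneal arrays and undetected on the 3 liver arrays, and the Igfbp6 points of lung and adipose are spread widely.

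The enrichment over the organs was described and not tested for peritoneal mesothelium, because the study chose both genes on these arrays for that difference. The closest organ was bladder for both. The Igfbp6 mean was 10.02-fold higher in peritoneal mesothelium than in bladder, a log2 difference of 3.32 ± 0.25 (SE), 11.4-fold higher than in lung and 20.4-fold, 28.7-fold and 30.3-fold higher than in adipose, heart and skeletal muscle. The Ptgis mean was 3.48-fold higher than in bladder, a log2 difference of 1.80 ± 0.21 (SE), and 6.95-fold, 11.8-fold, 41.7-fold and 42.8-fold higher than in lung, heart, skeletal muscle and adipose. Over liver the fold was at least 124 for Igfbp6 and at least 85.7 for Ptgis, with liver set to the lowest signal of a detected probe. By the smallest of its 6 differences Igfbp6 had 35 of the 46120 probes above it and Ptgis had 166.

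Whether pleural and pericardial mesothelium also exceeded the organs was tested in limma across all 46120 probes, with Benjamini-Hochberg adjustment. The study listed both genes for the peritoneal source alone, so neither met its rule in this source on the same arrays. That rule asked for a positive B-statistic and at least a 2-fold excess over every organ. The adjusted p used here asks for neither a positive B-statistic nor a 2-fold excess. Its outcome can therefore differ from the study's class and is not independent of it. By this test the Igfbp6 signal of this source exceeded that of each of the 6 organs. The difference was smallest against bladder, where the mean was 2.02-fold higher (log2 difference 1.01 ± 0.25, SE, limma adjusted p = 0.00696). Against lung it was 2.29-fold higher (log2 difference 1.20, limma adjusted p = 0.00171), and against adipose, heart and skeletal muscle it was 4.11-fold, 5.78-fold and 6.11-fold higher (limma adjusted p = 1.53e-05, 3.35e-07 and 8.63e-08). It was at least 24.99-fold higher than in liver (limma adjusted p = 8.59e-14). The share of all probes called higher in pleural and pericardial mesothelium was 6.6% against bladder, 6.71% against lung, 2.89% against adipose, 8.25% against heart, 11.1% against skeletal muscle and 11.4% against liver.

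In the same source Ptgis was higher than in 5 of the 6 organs. The exception was bladder, where the mean was 1.27-fold higher but the log2 difference of 0.35 had a 95% interval from -0.09 to 0.78 and did not pass the test (limma adjusted p = 0.404). Against lung and heart the mean was 2.54-fold and 4.32-fold higher (limma adjusted p = 7.47e-05 and 3.25e-07). Over skeletal muscle and adipose it was 15.2-fold and 15.6-fold higher (limma adjusted p = 2.11e-11 and 1.51e-10), and the fold over liver was at least 31.3 (limma adjusted p = 5.07e-15). Set beside each other, the differences of the 2 genes from pleural and pericardial mesothelium were 1.20 and 1.35 for lung, but 2.04 for Igfbp6 and 3.97 for Ptgis in adipose.

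**Figure D2:**
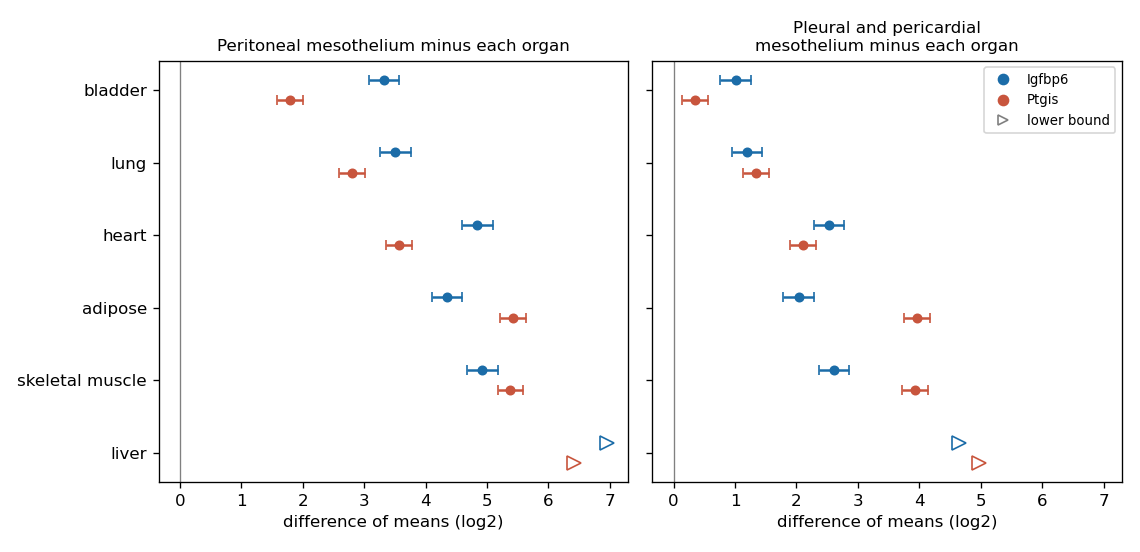
Differences of mean log2 signal between each mesothelium source and each organ, for Igfbp6 and Ptgis. Points are differences with their standard errors, and open triangles over liver are lower bounds. The difference of Ptgis over bladder in the right panel lies nearest to 0, and Ptgis exceeds Igfbp6 against adipose and skeletal muscle in both panels.

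The 6 organs differed among themselves in both genes. The means of Igfbp6 spanned 5.20 log2 units from bladder to liver (limma F test, adjusted p = 4.73e-12) and those of Ptgis spanned 5.88 (limma F test, adjusted p = 4.21e-14). Both spans rest on liver at its low end, where neither probe was detected. Of all probes 39.1% passed the same F test.

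Peritoneal mesothelium was then compared with pleural and pericardial mesothelium. The study classed both genes on these same arrays as enriched in the peritoneal source only, so part of this difference is built into their choice. Igfbp6 was 4.96-fold higher in peritoneal mesothelium, a log2 difference of 2.31 ± 0.25 (SE) with a 95% interval from 1.79 to 2.83 (limma adjusted p = 3.34e-06). Ptgis was 2.73-fold higher, a log2 difference of 1.45 ± 0.21 (SE) with a 95% interval from 1.01 to 1.89 (limma adjusted p = 0.000104). Of all probes 3.41% were called higher and 2.4% lower in the peritoneal source, and the median difference over all probes was 0.0075. The Igfbp6 difference was exceeded by 109 probes and the Ptgis difference by 454.

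Between arrays of the same replicate number the Igfbp6 difference was 2.28, 2.57 and 2.08, and the Ptgis difference was 1.38, 1.54 and 1.43. Igfbp6 thus had the larger difference in each of the 3 pairs, by 0.89, 1.03 and 0.65, a contrast that was not tested. The mesothelial markers moved in the same direction, which for Msln and Upk3b is partly built into the study's lists. The mean of the markers, with 1 probe per gene, was 12.04 to 12.12 on the peritoneal arrays and 10.87 to 10.99 on the pleural and pericardial arrays. It differed by 1.20, 1.17 and 1.10 between arrays of the same number. Over these differences the Igfbp6 difference was larger by 1.08, 1.40 and 0.98 and the Ptgis difference by 0.18, 0.37 and 0.33. The study listed Lrrn4, Wt1 and Nkain4 as enriched in both sources, and Igfbp6 and Ptgis in the peritoneal source only. A larger difference for Igfbp6 and Ptgis than for the markers is therefore partly built in. In a tissue sample of this kind a larger number of mesothelial cells and more transcript per cell cannot be told apart.

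Of the 7 probes of the 5 mesothelial markers 2 passed the test between the sources, both higher in the peritoneal one. Among all probes 3.41% were called higher and 2.4% lower there. Wt1, a transcription factor of the developing mesothelium, was 1.44 higher on the log2 scale (limma adjusted p = 0.00833), and 1 of 3 Upk3b probes was 1.09 higher (limma adjusted p = 8.79e-07). The brightest Upk3b probe differed by 1.26 (limma adjusted p = 0.0523), Lrrn4 by 1.32 (limma adjusted p = 0.0971), Msln by 1.14 (limma adjusted p = 0.117) and Nkain4 by 0.64 (limma adjusted p = 0.267). The differences between arrays of the same number were above 0 for all 7 probes, for Msln 1.25, 1.17 and 0.99. The study listed Msln among the genes enriched in the peritoneal source only, and Upk3b both there and among those enriched in both sources. For these genes the direction is therefore partly built in. A replicate block changed none of the calls for the 7 probes. The spread behind them is pooled over 8 tissues, however, and in a fit of the 2 sources alone, chosen after seeing the data, Msln (limma adjusted p = 0.00237), the brightest Upk3b probe (limma adjusted p = 0.0117) and Lrrn4 (limma adjusted p = 0.0248) also passed. The Igfbp6 and Ptgis differences both exceeded that of each of these 7 probes, for Ptgis only narrowly over Wt1. This too is partly built in, since the study listed Lrrn4, Wt1 and Nkain4 as enriched in both sources. Dcn, which encodes the matrix proteoglycan decorin and stands here for connective tissue cells, was 1.15 higher on the log2 scale. It was the only one of 6 fibroblast markers with a named probe, and its part in the results for Igfbp6 and Ptgis was not tested. The study listed Dcn among the genes enriched in the peritoneal source only, and the direction of its difference follows from that choice.

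Transcripts of the intestine and pancreas were also higher on the peritoneal arrays. All 7 probes of Zg16, Defa6, Clps and Spink3, which encode a goblet cell protein, a Paneth cell defensin, a pancreatic colipase and a secreted protease inhibitor, had a higher mean in peritoneal mesothelium, with a median log2 difference of 4.98. The study had listed these 4 genes as enriched in the peritoneal source only, so the direction was fixed by their choice and is not a test. The mean level of these 4 genes was 7.79 to 10.94 on the 3 peritoneal arrays and 5.26 to 5.36 on the pleural and pericardial ones. On the same peritoneal arrays Igfbp6 spanned 0.20 log2 units and Ptgis 0.48. From replicate 1 to 3 Ptgis rose from 13.26 to 13.74 and each of the 4 genes fell, Zg16 from 12.08 to 8.26. Ptgis also rose by replicate number on the pleural and pericardial arrays, at 11.88, 11.97 and 12.31. The mean of the 4 genes was only 5.26 to 5.36 on those arrays. Igfbp6, at 13.93, 14.13 and 14.05 on the peritoneal arrays, had no such order. A link between these genes and Igfbp6 or Ptgis was not tested.

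The insulin-like growth factor axis around Igfbp6 could be read only in part. Of 17 genes listed for the axis, among them the growth factors, their receptors, other binding proteins and proteases that release them, 2 had a named probe, and both names come from lists that the study drew up on these arrays. Htra1, a secreted serine protease that can cleave insulin-like growth factor binding proteins, was at 11.92, 11.80 and 12.03 on the peritoneal arrays and at 10.61, 10.32 and 10.53 on the pleural and pericardial arrays. It was 1.43 higher on the log2 scale in the peritoneal source (limma adjusted p = 0.000216), on whose list of enriched genes the study had placed it, and, like Igfbp6, was detected on 0 of 3 liver arrays. Igfbp5, a binding protein that associates with the extracellular matrix, was at 13.79, 14.71 and 14.50 on the peritoneal arrays and at 14.53, 14.87 and 14.82 on the pleural and pericardial arrays, which overlapped.

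The Igfbp5 difference was -0.41, opposite in sign to that of Igfbp6, and did not pass the test (limma adjusted p = 0.287). The study had placed Igfbp5 among the genes enriched in pleural and pericardial mesothelium only, so the opposite signs of Htra1 and Igfbp5 follow from the lists that named them. Its profile over the organs also departed from that of Igfbp6. Igfbp5 was detected on all 3 liver arrays, at 7.99 to 8.21, and its highest organ mean was that of skeletal muscle (13.64 ± 0.16, SD, n = 3), the tissue second lowest in Igfbp6. The list as a whole gave 1 probe higher and 0 lower, where 3.41% of all probes were called higher and 2.4% lower. Its median difference was 0.51 beside 0.0075 for all probes. That median is only the midpoint of 2 probes of opposite sign and does not describe the axis as a whole. Of 21 genes of the prostanoid pathway, which holds the cyclooxygenases, the other prostanoid synthases and the receptors, none carried a probe name here, so the partners of Ptgis were not analysed.

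**Figure D3:**
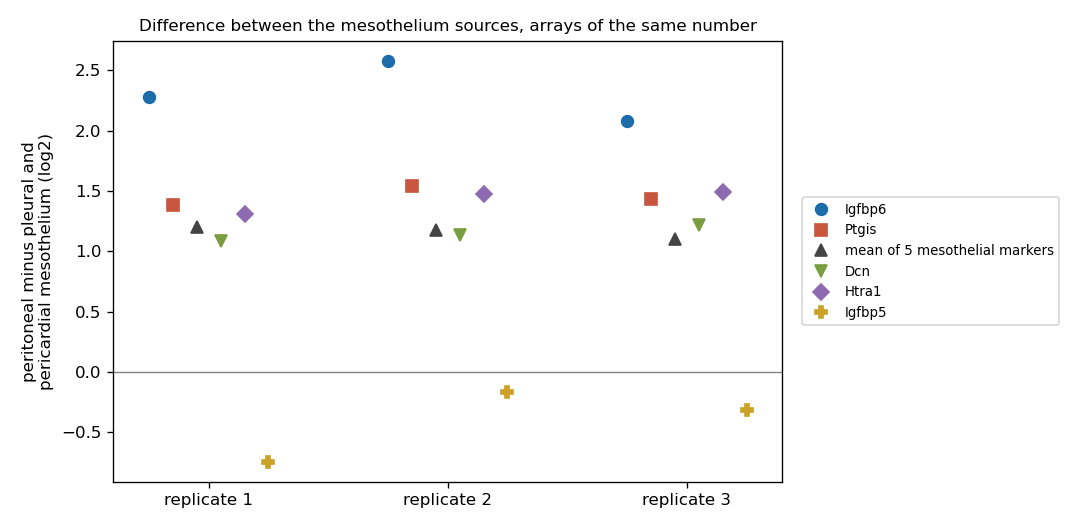
Log2 difference between peritoneal and pleural and pericardial mesothelium, computed between arrays of the same replicate number. Points are Igfbp6, Ptgis, the mean of 5 mesothelial markers, Dcn, Htra1 and Igfbp5. Igfbp6 lies above 2 in each pair, Ptgis lies between 1.38 and 1.54, and Igfbp5 lies below 0.

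The 2 genes and the mesothelial markers were set side by side within the organs. Lung replicate 1 had the highest Igfbp6 signal of the lung arrays, 11.13 against 9.99 and 10.47, and also the highest mean of the 5 markers, 8.82 against 7.54 and 7.44. Msln was at 10.32 on that array and at 8.62 and 8.44 on the others. Ptgis was at 10.82 there and at 10.70 and 10.60 on the others. Without this array the lung mean of Igfbp6 was 10.23 in place of 10.53, its 3 bladder arrays all lay above the remaining lung arrays, and the difference between pleural and pericardial mesothelium and lung was 1.50 (limma adjusted p = 0.000139).

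In adipose and skeletal muscle both genes were detected on all 3 arrays although the markers were mostly not. The marker mean was 5.26 to 5.92 in adipose and 5.15 to 5.37 in skeletal muscle, close to the 5.46 to 5.71 of liver, and Msln, Lrrn4 and Nkain4 were detected on 0 of 3 arrays of either tissue. Adipose replicate 1, with the highest Igfbp6 signal of that tissue, had the lowest marker mean of its 3 arrays. Without it the adipose mean of Igfbp6 was 9.44 in place of 9.69, and pleural and pericardial mesothelium remained 2.29 above adipose (limma adjusted p = 5.00e-06). In bladder, where both genes had their highest organ means, the marker mean was 8.50 to 8.66. Upk3b, which the study also detected in human urothelial cells, was highest there at 12.07. Msln, Wt1, Nkain4 and Lrrn4 were at 8.94, 8.03, 7.74 and 6.20.

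Over the 8 tissue means Igfbp6 and Ptgis correlated with each other at r = 0.936, and at 0.884 over the 7 tissues without liver. The tissues include peritoneal mesothelium, for which both genes were chosen, and over the 6 organs alone r was 0.878. These values describe the profiles and have no test.

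The probes with the most similar profiles were sought among the 302 named probes that were detected throughout the 3 arrays of some tissue. These names come from lists of mesothelium-enriched genes, so a common peak in mesothelium is built in. For Igfbp6 the closest was Sema5a, which encodes a transmembrane semaphorin, with r = 0.989 over 8 tissue means, and it ranked 1 among all 15536 other detected probes, named or not. Rcn3, an endoplasmic reticulum protein that binds calcium, followed at 0.983, then 4930533K18Rik at 0.982, Adamts2, the protease that trims the amino end of procollagens, at 0.977, and the probe named Snord123 at 0.975. Without liver these 5 correlations were 0.945 to 0.979. The tissue means of Sema5a were 12.00 in peritoneal mesothelium, 10.11 in pleural and pericardial mesothelium and 9.93 in bladder, so that it had a difference of 1.89 between the sources.

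For Ptgis the closest named probes were Bicc1, which encodes an RNA-binding protein, at r = 0.968, 2410039M03Rik at 0.968, Ddr1, a receptor tyrosine kinase for collagen, at 0.963, the brightest Upk3b probe at 0.959 and Sema5a at 0.956. Their ranks among all detected probes were 3, 5, 8, 10 and 13. Without liver the correlations were 0.921 to 0.982. Upk3b, a uroplakin of mesothelium that the study also detected in human urothelial cells, was highest of the 5 without liver. Like Ptgis it had bladder as its highest organ, at 12.07 ± 0.11 (SD, n = 3). Upk3b fell to 5.66 in adipose and 5.37 in skeletal muscle, however, where it was detected on 1 and 0 of 3 arrays, whereas Ptgis was detected on all arrays of both.

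**Figure D4:**
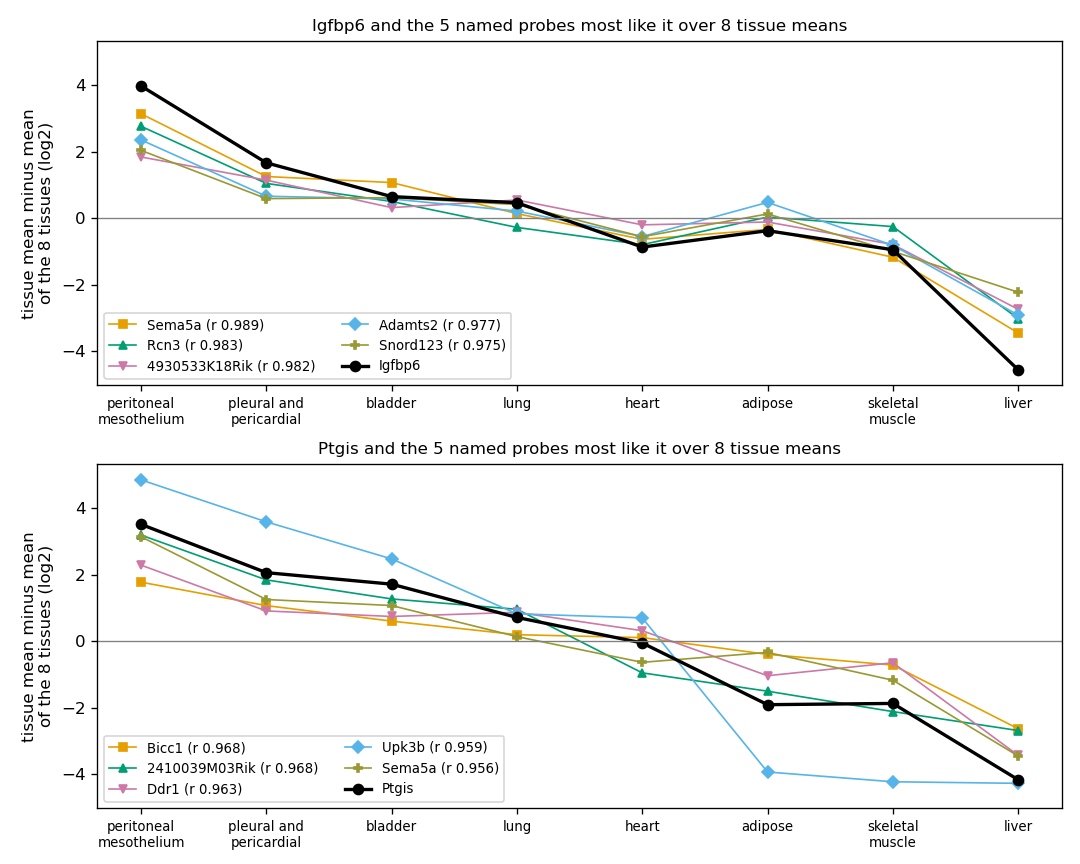
Tissue means of Igfbp6 (top) and Ptgis (bottom), in black, with the 5 named probes of the most similar profile. The vertical axis is the tissue mean minus the mean of the 8 tissue means, in log2 units, and r is the Pearson correlation over 8 tissue means. The profiles share the peak in peritoneal mesothelium and the low value in liver, and Upk3b lies well below Ptgis in adipose and skeletal muscle.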

How the data were processed

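Gene expression was measured on 24 arrays, 3 for each of 8 tissues, grouped by the tissue named in the labels. For each of 46120 probes the authors deposited the signal intensity that BeadStudio gave, after background subtraction and before any normalization between arrays. A detection score was deposited beside it, which is 1 minus a detection p. A second table holds the authors' normalized intensity, made with Lumi by quantile normalization and deposited on a linear scale. No columns of other samples were present.

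Of the signals 36.0% were at or below 0. They were therefore corrected with normexp in limma 3.58.1 (R 4.3.3), with negative controls inferred from the detection scores and an offset of 16, and then quantile-normalized and taken as log2. The scores of 10 probes lay off the common steps and were left out of the inference only. The SD of the inferred negative controls came to between 14.1 and 43.0 signal units, depending on the array. One mean per tissue was fitted over 24 arrays, and p-values were adjusted by Benjamini-Hochberg over all 46120 probes at 0.05. The test was checked on simulated data. A fold over a tissue without detection is a lower bound, with each of its arrays set to the higher of 2 normalized signals, that of the dimmest detected probe and that of the probe itself. The offset makes folds of dim probes smaller, and the number of arrays limits the precision.

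Gene names came from the study's tables, which name 350 probes and 311 genes. A reading of probe identifiers as gene numbers gave the right symbol for 92 of 97 matched probes, 94.8%, short of the 95% set for its use, and was not used. Genes in the text are the members, listed pathway genes and markers with a named probe, and the 5 named probes most similar to each member, a gene with several probes being given by its brightest. The members and lists were chosen with earlier results of these data known. Alternatives were another background correction, the authors' values, another scaling, a detection filter, separate fits, a replicate block and leaving out each array. Replicate numbers paired the mesothelium sources, since deviations from the tissue means correlated at 0.605, 0.589 and 0.630 between arrays of the same number. Between other numbers the deviations correlated at -0.415 to -0.162. Deviations cancel out over the arrays of a tissue, so these negative values follow from the positive ones and add no evidence. The link between arrays of the same number was weaker but not absent elsewhere. Arrays of the same number correlated at 0.257 to 0.433 for lung and skeletal muscle, at 0.276 to 0.386 for pleural and pericardial mesothelium and liver, and at -0.206 to -0.105 for adipose and heart. Figures were drawn with matplotlib.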

Additional observations from a re-analysis of the deposited data

How the results depend on the processing

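The 9 results with a value kept their direction and their side of the threshold under the alternatives that could be run. Their sizes moved in places. Scaled to the 75th percentile, the Igfbp6 difference between peritoneal mesothelium and bladder was 2.95 in place of 3.32. The span of the 6 organ means, with undetected liver at its low end, moved most, and the cause was not tested. It was 5.20 for Igfbp6 and 5.88 for Ptgis, with 3.92 and 4.67 after normexp on all probes with an offset of 50, 4.23 and 4.95 after a shift to a minimum of 1, and 6.41 and 6.87 with the normalized values of the authors. The counts over the insulin-like growth factor list rest on 2 probes, and the prostanoid list gave no value because none of its genes had a named probe. With the replicate block the difference between the sources stayed at 2.31 for Igfbp6 (limma adjusted p = 9.18e-06) and 1.45 for Ptgis (limma adjusted p = 0.000274), and it changed no call. Leaving out 1 array at a time gave 2.22 to 2.43 for Igfbp6 and 1.33 to 1.58 for Ptgis in that comparison, and 0.89 to 1.10 for Igfbp6 in pleural and pericardial mesothelium over bladder, with limma adjusted p up to 0.0431. The Ptgis difference over bladder in that source ran from 0.22 to 0.43 and did not pass the test in any of these 24 fits (limma adjusted p = 0.182 to 0.713). The normalized values of the authors raised the limma adjusted p of Igfbp6 over bladder to 0.0265, and scaling to the 75th percentile raised it to 0.0410. Among all 46120 probes the number called between the sources was 2677, and 2306 to 2848 under the other settings that test all probes on all arrays. The separate fit, on the arrays of the 2 sources alone, called 1966. With the detection filter the number was 2869 of 15537. The fits without lung replicate 1 and without adipose replicate 1, quoted above, were chosen after seeing the data, as were the fits of single marker probes with the replicate block and for the 2 sources alone. The latter called 3 further mesothelial probes, and of the intestinal and pancreatic probes it did not call Clps (limma adjusted p = 0.0879) and Spink3 (limma adjusted p = 0.122). Both probes were below detection in liver, which limits every fold over that organ to a bound.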
